A study of Rattus norvegicus with 3 samples.

Results

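Pairs of narrow H3K14Ac regions lying within 2000 bp of a neighbour were examined in the cerebellum (Cll) of Gunn rats at P9. The regions were chosen by the peak lists themselves. Peaks of the 3 libraries were joined wherever they overlapped by 1 bp, which gave 36559 regions on chromosomes 1 to 20 and X, and 11189 of these held a peak of every library (shared regions). Among the shared regions, those under 2000 bp wide with another shared region at most 2000 bp away were kept. This left 176 closely paired narrow regions, which are 1.63% of the 10801 narrow shared regions (exact Clopper-Pearson 95% interval 1.40 to 1.89%). The remaining 10625 narrow regions were isolated, and 388 shared regions were wide. Presence in each library, width and distance to the neighbour were thus fixed by the choice and are given as a description.

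The pups came from the Gunn strain (Hds Blue:Gunn-UDPGTj), in which homozygous jj animals cannot conjugate bilirubin and ctrl littermates have normal bilirubin. Library jj replicate 1 was made from the Cll of 1 jj pup, jj replicate 2 from 3 pooled jj pups and the ctrl library from 3 pooled ctrl pups, all at P9 and all with the same anti-H3K14Ac antibody. The jj pups were sequenced in 2 runs and the ctrl pups in 1 run, so that run and library cannot be told apart. Each pool is a single value, and there is 1 ctrl library, so jj and ctrl were not tested against each other. Whole Cll was used, and in such tissue fewer cells carrying the mark and less of the mark per cell cannot be told apart. The lists carry no gene names, so the tissue could not be checked against marker genes.

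Acetylation of lysine 14 of histone H3 is added by acetyltransferases of the GCN5/PCAF and MYST families and is read by bromodomain proteins. It is a mark of active chromatin and is known at the promoters of transcribed genes and at enhancers. At an active promoter, the acetylated nucleosomes usually lie on either side of a stretch without nucleosomes at the gene start. A pair of divergent promoters can likewise carry acetylated nucleosomes at both ends. Whether the pairs described here lie at gene starts was not tested, since no gene annotation of rn4 was used.

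The distance between paired regions had a lower limit. The smallest gap was 1017 bp and the largest 1999 bp, with a median of 1479 bp and quartiles of 1240 and 1757 bp over the 103 gaps that have a member on at least 1 side. The same limit was seen in every list. Neighbouring peaks of jj replicate 1 were never closer than 1149 bp, those of jj replicate 2 never closer than 1045 bp, and those of ctrl never closer than 1009 bp. None of the own lists held a gap under 1000 bp, so acetylated flanks closer to each other than this are not seen as separate regions in these lists.

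Short gaps were about as frequent as longer ones. Of all adjacent shared regions, wide ones included, 63 were 1000 to 1500 bp apart and 51 were 1500 to 2000 bp apart. Between 2000 and 10000 bp, each step of 500 bp held from 37 to 76 such gaps, with a median of 51.5. The limit of 2000 bp therefore does not fall at a break in the distances. The member nearest to this limit, on chromosome 11 from 82001304 to 82001689, lay 1999 bp from its neighbour and had folds of 5.02 in jj replicate 1, 5.11 in replicate 2 and 5.05 in ctrl. The first narrow region beyond it, on chromosome 13 from 12151339 to 12151785, lay 2022 bp away and had folds of 4.37, 4.08 and 4.94 in the same order. For width, the last member was on chromosome 19 from 34870092 to 34872056 (1965 bp, folds of 3.40, 3.95 and 3.43), and the first region with a close neighbour that was too wide was on chromosome 1 from 84301902 to 84303908 (2007 bp, folds of 6.06, 5.54 and 6.34).

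Most members formed simple pairs. In 76 cases 2 members lay side by side, and 3 members followed each other once. The remaining 21 members had no narrow neighbour and lay beside a wide region. Of the 103 gaps, 78 separated narrow regions and 25 separated a narrow from a wide region. None of the gaps held a peak of only 1 or 2 libraries. The spacing of over 1000 bp between peaks of a list leaves little room for such a peak, since every library has a peak on both sides.

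Fold enrichment in the lists is the coverage of a peak over the coverage expected at that place in the same library. It thus describes strength relative to that expectation, within a library. How far a close neighbour enters the expected coverage was not tested. Closely paired narrow regions had lower folds than isolated ones in all 3 libraries. In jj replicate 1 their median fold was 5.16 (quartiles 3.93 and 6.35), beside 8.61 in isolated narrow regions and 4.54 in wide regions. In jj replicate 2 it was 4.63 (3.95 and 5.72), beside 6.47 and 4.64, and in ctrl 5.17 (3.91 and 6.36), beside 7.63 and 4.67. The paired regions are hence close in fold to the wide regions, although they are narrow by choice. Below the median of the isolated regions were 172 of 176 members in jj replicate 1, 152 in replicate 2 and 162 in ctrl, and 146 (83.0%) were below it in every library. The highest fold of any member was 9.25, whereas isolated regions reached 17.7, 17.1 and 18.6 in jj replicate 1, jj replicate 2 and ctrl. A maximum rises with the number of regions, and the upper quartiles of the isolated regions were 9.98, 7.69 and 8.99 in the same order. These differences were not tested, because the members come from the same lists as the folds.

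The lower fold was present at every width. The members had a median width of 668 bp (quartiles 522 and 1000 bp), and isolated regions one of 766 bp (627 and 987 bp). Among regions of 500 to 750 bp, the 73 members had median folds of 6.03 in jj replicate 1, 5.24 in replicate 2 and 5.93 in ctrl, beside 9.76, 6.46 and 8.17 in 4507 isolated regions. From 1000 to 1500 bp, the 28 members were at 3.97, 4.18 and 3.85, beside 7.04, 6.19 and 6.71 in 1989 isolated regions. The paired regions were lower in each of the 5 width classes and in each library. The smallest distance was under 500 bp in jj replicate 2, with 4.63 in 32 members and 4.94 in 543 isolated regions. This split by width was added after the values were seen.

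Peaks of the members were also less often strong by q. A −log10 q of at least 5 in every library was found in 85 of 176 members (48.3%, exact interval 40.7 to 55.9%), in 71.0% of isolated regions and in 59.8% of wide regions. At a limit of 3 these shares were 80.7% in members, 88.4% in isolated and 86.3% in wide regions. The median −log10 q of the members was 12.9 in jj replicate 1, 5.13 in replicate 2 and 9.36 in ctrl. The same order of the libraries was seen in isolated regions, at 21.3, 7.68 and 13.2.

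The strongest pairs, ranked by the lowest of the 6 folds of a pair, lay on chromosomes 3, 1 and 8. On chromosome 3, the region from 122797464 to 122797954 had a fold of 6.79 in jj replicate 1, 7.54 in replicate 2 and 6.77 in ctrl. Its partner from 122799205 to 122799848, 1250 bp away, had folds of 7.14, 6.09 and 7.74. The left region was thus the higher in replicate 2, and the right region was the higher in jj replicate 1 and ctrl. The second pair was on chromosome 1, with folds of 6.22, 7.62 and 7.11 from 205851168 to 205851755 and of 6.95, 5.91 and 6.86 from 205853323 to 205853861. Here jj replicate 1 put the right region higher, and jj replicate 2 and ctrl the left one.

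On chromosome 8, the third pair was nearly balanced. The region from 91703639 to 91704314 had folds of 6.40 in jj replicate 1, 5.77 in replicate 2 and 7.52 in ctrl, and the region from 91706079 to 91706846 had folds of 6.22, 5.72 and 6.66. The left one was higher in all 3 libraries, by little in the jj libraries. The fourth pair lay on chromosome 1 from 95638747 to 95641030, and the last pair of this ranking on the same chromosome from 95488295 to 95490990. In both, jj replicate 1 was higher in the left region (8.22 against 6.40, and 7.45 against 5.60) and jj replicate 2 in the right region (7.09 against 5.61, and 6.72 against 6.34). Ctrl was higher on the right in the fourth pair, at 7.44 against 6.67, and on the left in the last, at 7.89 against 6.70.

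Which region of a pair was the stronger one differed between libraries in nearly as many pairs as it did not. All 3 libraries had the higher fold in the same region in 41 of 78 narrow pairs (52.6%, exact interval 40.9 to 64.0%). Among neighbouring narrow regions over 2000 and up to 10000 bp apart, this share was 65.4% of 706 (61.8 to 68.9%), and beyond 10000 bp it was 62.9% of 9658 (61.9 to 63.9%). The jj libraries had the same stronger region in 46 pairs (59.0%). For jj replicate 1 and ctrl it was 56 pairs (71.8%), and for jj replicate 2 and ctrl 58 pairs (74.4%). Beyond 10000 bp these shares were 70.0%, 79.6% and 76.2% in the same order, so a closer match of each jj library with ctrl was not particular to the pairs. Ranking by −log10 q in place of fold gave 44 of 78 pairs (56.4%), beside 69.3% over 2000 and up to 10000 bp and 72.0% beyond 10000 bp.

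The contrast within a pair was small. The stronger region had a median of 1.23 times the fold of the weaker one in jj replicate 1, 1.26 times in replicate 2 and 1.25 times in ctrl. For neighbours beyond 10000 bp these ratios were 1.24, 1.27 and 1.27. In most pairs the wider region had the higher fold, in 57 of 78 pairs (73.1%) in jj replicate 1, 47 (60.3%) in replicate 2 and 55 (70.5%) in ctrl. Width and fold are read from the same coverage and are not independent measures.

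Some pairs were one-sided in every library. On chromosome 17, the region from 12449993 to 12450791 had folds of 7.30 in jj replicate 1, 7.32 in replicate 2 and 7.38 in ctrl. Its partner from 12452066 to 12453167 had 3.33, 3.72 and 3.52, so that the left region had at least 1.97 times the fold of the right one in each library. The values of each region differed between the libraries by less than they differed between the regions. On chromosome 4, the left region from 5947063 to 5947749 had folds of 6.40, 6.56 and 6.49, and the right region from 5949618 to 5950805 had 3.08, 3.61 and 2.74. On chromosome 16, these were 8.27, 7.94 and 8.33 from 19108523 to 19109107 and 4.16, 4.61 and 3.62 from 19110259 to 19110773. These 3 pairs had the largest ratio that was reached in all libraries.

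The tightest narrow pairs were found on chromosomes 1 and 17. A gap of 1126 bp separated the regions on chromosome 1 from 208311083 to 208311810, with folds of 7.05 in jj replicate 1, 6.0 in replicate 2 and 5.41 in ctrl, and from 208312937 to 208313448, with 6.36, 4.27 and 4.74. Further along, a gap of 1147 bp lay between the region from 233513992 to 233515081 (folds of 6.04, 6.04 and 7.62) and that from 233516229 to 233516670 (5.09, 5.08 and 5.31). In both pairs the left region was higher in every library. On chromosome 17, the regions from 49710790 to 49711339 and from 49712489 to 49713765 were 1149 bp apart, and their folds were 2.19, 2.82 and 2.68 on the left and 3.34, 3.19 and 3.55 on the right.

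The single row of 3 members was on chromosome 19. Its regions ran from 15747956 to 15748641, from 15750018 to 15750967 and from 15752374 to 15752938, with gaps of 1376 and 1406 bp. In jj replicate 1 the folds were 3.23, 3.64 and 4.93 from left to right. They were 2.89, 4.32 and 5.68 in replicate 2 and 3.32, 4.25 and 4.51 in ctrl. Every library thus had its lowest fold on the left and its highest on the right.

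A part of the members lay in crowded stretches of the genome. Stretches were called dense where a region had at least 5 other shared regions within 50 kb, leaving out neighbours within 2000 bp, a limit set after the values were seen. By this limit 25 of 176 members (14.2%), in 9 stretches, were dense, as were 2.62% of isolated regions, 17.5% of wide regions and 3.32% of all shared regions. Their median folds were 2.60 in jj replicate 1, 2.90 in replicate 2 and 2.82 in ctrl, and those of the other 151 members were 5.36, 4.90 and 5.41. The median −log10 q was not lower in the dense members, at 16.0 beside 12.7 in jj replicate 1, 6.18 beside 5.00 in replicate 2 and 11.0 beside 9.30 in ctrl. The dense members were thus low in fold but not in −log10 q. Without them, the paired regions were still below the isolated regions that were not dense, which had medians of 8.62, 6.48 and 7.65.

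Dense stretches on chromosomes 13, 17 and 18 held many wide regions and most of the lowest folds of the members. On chromosome 13 from 19118762 to 19231196, 11 of 16 shared regions were wide and 3 were members, whose folds were 1.40 to 2.73 in jj replicate 1, 1.68 to 2.94 in replicate 2 and 1.5 to 2.98 in ctrl. From 30424514 to 30493083 on the same chromosome, 9 of 14 shared regions were wide and 5 were members, with folds from 1.45 to 2.48, 1.60 to 2.72 and 1.62 to 2.82. On chromosome 17 from 49552312 to 49721439, 24 shared regions included 11 wide regions and 7 members, with folds from 2.00 to 4.26, 2.21 to 3.77 and 2.22 to 3.79. On chromosome 18 from 38705052 to 38834395, 16 of 19 shared regions were wide, and the folds of the 2 members were at most 1.94, 2.10 and 1.99.

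Dense stretches with few wide regions held members of mostly higher fold. On chromosome 1 from 78451733 to 79082128, none of the 32 shared regions was wide. The pair in it had folds of 8.04 in jj replicate 1, 6.11 in replicate 2 and 7.40 in ctrl from 78672134 to 78672705, and of 6.03, 4.36 and 5.13 from 78673870 to 78674424. Lower folds were found on chromosome 1 from 80513574 to 80592041, where the pair was at 3.92 to 4.34, 4.07 to 4.90 and 3.87 to 5.08, and on chromosome 19 from 24742349 to 25034313, where the only member was at 3.63, 3.96 and 3.74. The one-sided pair of chromosome 16 described above lay in a stretch of 29 shared regions. Members beside a wide region had lower folds than those beside narrow regions alone, and were not compared with them by −log10 q. The median folds were 2.44, 2.72 and 2.74 in 23 members and 5.38, 4.90 and 5.41 in 153 members. Without the members that were dense themselves, these were 3.51, 3.73 and 3.40 in 10 members and 5.49, 4.93 and 5.49 in 141 members.

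Beyond the neighbour that the choice requires, members had more shared regions around them than isolated regions had. Counting shared regions over 2000 bp and up to 50 kb away, members had 2.15 on average, isolated regions 0.967 and wide regions 2.46. Without regions that were dense themselves, the averages were 1.04, 0.836 and 1.03. These are brought closer by leaving regions out by the same count. No such region was found within 50 kb of 64 members (36.4%), beside 49.6% of isolated regions. Without the dense regions, these shares were 42.4% and 50.9%.

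By chromosome, the share of narrow shared regions that were members ranged from 0.307% on chromosome 4 (2 of 652) to 4.99% on chromosome 17 (17 of 341, exact interval 2.93 to 7.86%). Chromosome 13 followed with 3.50% (12 of 343), and chromosome 1 held the most members, 31 of 1239 (2.50%). Of the members on chromosome 17, 8 were dense, as were 8 of the 12 on chromosome 13. The intervals treat regions as independent and cover counting error only.

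The edges of the paired regions fell close to each other in the 3 libraries. In the narrow pairs, the edges facing the gap differed between the libraries by a median of 90.5 bp (quartiles 50.8 and 144 bp) and the outer edges by 96.5 bp (58.5 and 157 bp), over 156 edges of each kind. Inner and outer edges thus varied alike. The peak of jj replicate 1 reached farthest at 110 inner and 110 outer edges (70.5% of each), that of ctrl at 34 (21.8%) and that of jj replicate 2 at 14 (8.97%), with ties counted for each library. Measured between its own peaks, the median gap was 1513 bp in jj replicate 1, 1571 bp in ctrl and 1647 bp in jj replicate 2. The order is that of the number of peaks in the lists, which is 29428 in jj replicate 1, 20871 in ctrl and 13537 in jj replicate 2 on these chromosomes. The ctrl gap lay between those of the jj libraries.

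The widest disagreement over a gap was on chromosome 12, where the ctrl peaks were 2715 bp apart and those of jj replicate 1 and 2 were 1716 and 1810 bp apart. Its left region, from 16152219 to 16152705, had a fold of 8.55 in ctrl, 5.24 in jj replicate 1 and 4.29 in jj replicate 2. The right region, from 16154408 to 16155810, was at 4.76, 5.36 and 5.35 in the same order. Ctrl was above both jj libraries on the left and below both on the right.

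For comparing jj with ctrl, each fold was placed among all peaks of its own list as a percentile. The median percentile of the members was 54.7 in jj replicate 1, 49.1 in ctrl and 28.7 in jj replicate 2, which is also the order of the number of peaks in the lists. Ranks in lists of different length depend on that length, so these percentiles are no measure of a position of ctrl relative to jj. In single members, the ctrl percentile was above both jj libraries in 49 of 176 (27.8%, exact interval 21.4 to 35.1%), where the share over all shared regions was 22.9%. It was below both in 20 (11.4%, 7.08 to 17.0%), where the share over all shared regions was 16.3%. Both shares over all regions, which carry the same dependence on length, lie within these intervals.

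Members in which both jj libraries were above ctrl were led by the region on chromosome 14 from 2601357 to 2602044. Its folds were 4.10 in jj replicate 1, 4.02 in replicate 2 and 3.08 in ctrl, at percentiles of 45.2, 17.9 and 0.728. The second, on chromosome 6 from 86422145 to 86422873, had folds of 8.44, 7.59 and 6.97 (percentiles 79.2, 78.9 and 67.4). The third was on chromosome 13 from 96987484 to 96988117, with 9.18, 8.25 and 7.69 (percentiles 84.8, 87.9 and 74.4). In each, the folds of both jj libraries were also above that of ctrl, but folds are relative to their own library, and neither measure is read as a difference between jj and ctrl.

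In the opposite direction, the left region of the pair on chromosome 12 described above came first, with percentiles of 55.2 in jj replicate 1, 22.7 in replicate 2 and 83.1 in ctrl. On chromosome 1 from 174110432 to 174110981, the folds were 5.52, 5.98 and 8.17 (percentiles 57.1, 52.0 and 79.2). On chromosome 17 from 49380461 to 49381577 they were 2.99, 3.51 and 3.54 (percentiles 0.958, 5.98 and 24.0). In the last, the folds of jj replicate 2 and ctrl were nearly equal. All 6 regions were chosen by the order of percentiles from lists of different length, which is a description of the lists and not a difference between jj and ctrl, and how far ctrl libraries differ among themselves cannot be seen from 1 of them.

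The jj libraries were also called with ctrl as the control, and both of these lists share the ctrl library. A peak of jj replicate 1 called in this way overlapped 114 of 176 members (64.8%, exact interval 57.2 to 71.8%), where the share over all shared regions was 71.0%. Limits on q were then applied to every list before members were chosen, so a neighbour had to pass them too. At a −log10 q of at least 3, 50.4% of 121 members were called (41.2 to 59.6%), and 57.3% of all shared regions. With at least 5 the share called was 40.0% of 45 members (25.7 to 55.7%), beside 31.7% of all shared regions. The members were thus not on the same side of all shared regions at every limit. Over all peaks, isolated regions were at 70.3% and wide regions at 92.8%. Both regions were called in 33 of the 78 narrow pairs, 1 of the 2 in 30 pairs and neither in 15. The same count was not made for neighbours farther apart, so it is not read as a trait of the pairs. The median fold in the own list of jj replicate 1 was 5.02 in the members called and 5.31 in those not called.

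In jj replicate 2 called against ctrl, 4 members were overlapped (2.27%, exact interval 0.623 to 5.72%), where the share over all shared regions was 0.518%. With a −log10 q of at least 3 in every list, 0 of 121 members were called (exact upper limit 3.00%), beside 0.213% of all shared regions at that limit. So few calls do not settle whether the share of members was higher. Over all peaks, isolated regions were at 0.245% and wide regions at 7.22%. All 4 were also called in jj replicate 1. On chromosome 17 they were the regions from 49329367 to 49330633 and from 49380461 to 49381577, and on chromosome 13 those from 30477656 to 30479264 and from 19197258 to 19198023. The regions of chromosome 13 lay in the stretches described above, and those of chromosome 17 in another, from 49299828 to 49385609, where 6 of 9 shared regions were wide. Their folds against ctrl were 1.51, 1.87, 1.54 and 1.53 in jj replicate 1, and 1.63, 2.20, 1.55 and 1.78 in jj replicate 2. The reference of these folds is not the same for every peak, and they are not taken as ratios of jj over ctrl. In the own lists, their folds were 2.44, 3.54, 2.00 and 1.5 in ctrl, 2.23, 2.99, 1.94 and 1.40 in jj replicate 1, and 2.50, 3.51, 2.15 and 1.68 in jj replicate 2. Ctrl was thus above jj replicate 1 in all 4, and below jj replicate 2 in all but the region from 49380461. Of the 151 members that were not dense themselves, 1 (0.662%) was called, which is the region from 49380461, with 3 shared regions within 50 kb. Of the dense members 3 of 25 (12.0%) were called. The 26 isolated regions called were all among the 10347 that were not dense (0.251%), while 278 isolated regions were dense. The dense stretches with members held from 0 (chromosomes 1, 16 and 19) to 10 (chromosomes 13 and 18) called regions of any class. The part of the dense stretches in the calls of members was not tested.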

How the data were processed

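ChIP-Seq of H3K14Ac from P9 Cll was analysed in 3 libraries (jj replicate 1, jj replicate 2, ctrl). According to the methods and the labels, the authors aligned paired-end reads to the rn4 build using bowtie2, removed duplicate reads and called peaks per library using MACS2. Versions and options are not given in the sources used here. The 5 deposited lists give, per broad peak, a fold enrichment (a ratio over the coverage MACS2 expects), a −log10 p-value and a −log10 q-value, each averaged over the peak. The lists hold no read totals, so depth is unknown, and peaks below the calling limit are missing.

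Own lists were merged at 1 bp of overlap and a neighbour could have any width. A region took the highest fold and −log10 q of each library. Positions count from 1. Python 3.11.15, numpy 2.4.6, pandas 2.3.3 and scipy 1.17.1 were used, and merging was tested on simulated data. Intervals are exact (Clopper-Pearson, 95%). No test was made. Members and lists were chosen with earlier results of these data known. Positions named are the 5 pairs with the highest smallest fold, the 3 tightest pairs, those nearest each limit, the longest row of members, the 3 most one-sided pairs, the 3 members most above and the 3 most below ctrl in both jj libraries, and members called against ctrl in both jj lists. The pair on chromosome 1 in the stretch of 32 regions and the own gaps on chromosome 12 were named after their values were seen, and the shares of all shared regions at limits on q were added later. Alternatives were the rule for joining or calling, limits on q, gap and width, the kind of neighbour and all sequences. Further ones were each jj library left out, other measures of strength and (added later) no dense regions. The gene table at hand is of another build (GRCr8), so no gene or sequence was assigned.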

Additional observations from a re-analysis of the deposited data

How the results depend on the processing

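Of 115 values recomputed under 15 settings, 88 stayed within 1.5 times (numbers), the exact interval (shares) or the SD of the jj libraries (0.375 for median folds, 94.4 bp for gaps), and 27 moved. With a gap limit of 1000 bp there were 0 members (0.0% of narrow regions) and 0 gaps, so that the other values could not be computed. With 3000 bp there were 329 members (3.05%), 190 gaps and a median gap of 1931.5 bp. Both follow from the limit. With a −log10 q of at least 5 in every list, 45 members (0.590%) and 29 gaps were left, with median folds of 5.60 in jj replicate 1, 5.56 in replicate 2 and 5.94 in ctrl, and 40.0% and 0.0% of members were called against ctrl in jj replicate 1 and 2. At 3, the share of narrow regions was 1.27%, the median fold 5.08 in replicate 2 and 5.58 in ctrl, and the shares called against ctrl 50.4% and 0.0%. These limits were applied to every list before members were chosen, also to the lists against ctrl. A neighbour therefore had to pass them too, unlike in the shares of the 176 members at limits on q. Leaving out each jj replicate gave 243 to 323 members (2.18 to 2.19% of narrow regions), 139 to 187 gaps and a median gap of 1352 to 1470 bp, where fewer libraries have to hold a peak. The number of members was 323 without jj replicate 2. The same region was stronger in both remaining libraries in 71.3 to 74.1% of pairs, a share that rises by construction with fewer libraries. Settings for joining peaks, width, kind of neighbour and sequences used moved no value past these limits. The length-weighted mean fold could not move any, since no member held more than 1 peak of a library. The setting without regions that were dense themselves, chosen after the data were seen, moved none either. The interval for the share called against ctrl in jj replicate 2 (2.27%) is wide, however. This share became 0.645% with a narrow neighbour, 0.662% without regions dense themselves and 1.22% with a gap limit of 3000 bp. It became 3.70% without jj replicate 1, 4.41% on all sequences and 5.15% with a width limit of 3000 bp. The share over all shared regions is 0.518% whatever the limits on gap, width and neighbour, and was not computed at the other settings. A higher width limit takes in regions otherwise counted as wide, of which 7.22% were called. The changes are therefore not read as particular to the members. The 1 member behind the 0.662% lay in a dense stretch but was not dense itself. No paired analysis was possible because there is 1 ctrl library and no test was made. Without read totals, what depth limits is not known.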

Other observations

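At a stricter limit on q, the members were close to wide regions and below isolated ones. A −log10 q of at least 10 in all 3 libraries was found in 23 of 176 members (13.1%, exact interval 8.47 to 19%), in 31.8% of isolated narrow regions and in 14.7% of wide regions. The distance to the neighbour made little difference to the fold. Members with their nearest gap under 1500 bp had median folds of 5.14 in jj replicate 1, 4.56 in replicate 2 and 5.06 in ctrl, and those with a gap from 1500 to 2000 bp had 5.24, 4.73 and 5.25. With the unplaced sequences of the build included, 204 regions met the limits in place of 176, and 9 of them (4.41%) were called against ctrl in jj replicate 2. The share over all shared regions was not computed with these sequences, so this number is not read as a trait of the members.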
